A study of Homo sapiens with 6 samples.

Results

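The baseline transcriptome of BL2 cells was read from the 3 arrays of the scrambled siRNA group, out of 6 arrays in the study. BL2 is an established human Burkitt lymphoma cell line. The cells were grown in complete RPMI medium and electroporated with a scrambled siRNA, so these cultures are transfected controls and not untouched cells. The other 3 arrays held BL2 cells electroporated with a pool of 4 siRNAs against LEF1, and they were not used here. The design text names 3 biological replicates a group, and the labels place 1 scrambled siRNA array in each of batches 1, 2 and 3. Replicate and batch therefore cannot be told apart, and all spreads below hold both.

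Burkitt lymphoma arises from B cells of the germinal centre, the site where activated B cells divide fast, alter their antibody genes and are selected by antigen. Its hallmark is a translocation that places MYC, a transcription factor that raises ribosome production, metabolism and cell division, under the control of an antibody gene. Germinal centre B cells express BCL6, a repressor that holds back plasma cell differentiation, and the surface peptidase CD10, encoded by MME. LEF1 is a transcription factor that carries Wnt signals to DNA when it pairs with beta-catenin, and is known from early B and T cell precursors.

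The arrays gave values on a log2 scale, on which a difference of 1 is a factor of 2 in signal. Each of 19775 genes was represented by the probe set with the highest mean among those naming that gene alone. Probe sets bind with different strength, so the order of genes describes the order of signals and not of transcript numbers. A gene was called above background when it exceeded, on each of the 3 arrays, the 95th percentile of 82 olfactory receptor genes on that array, a family restricted mostly to the nose. Those limits lay at 7.22, 7.23 and 7.10 on batches 1, 2 and 3. By this rule 10119 of 19775 genes, or 51.2%, were above background, and the counts of the gene lists below are read against that share. Among protein-coding genes alone the share was higher, at 58.3%. The limit cuts through a dense range: ADAM23 passed it by 0.000314 and MET missed it by a margin of -0.000188. Leaving out probe sets ending in x, s or a, which can read several transcripts, left 559 of 726 list genes to measure. Of these, 369 were above background in place of 558, and the counts of 21 lists fell by over 1.5 times. The share over all genes was then 43.3%.

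**Figure D1:**
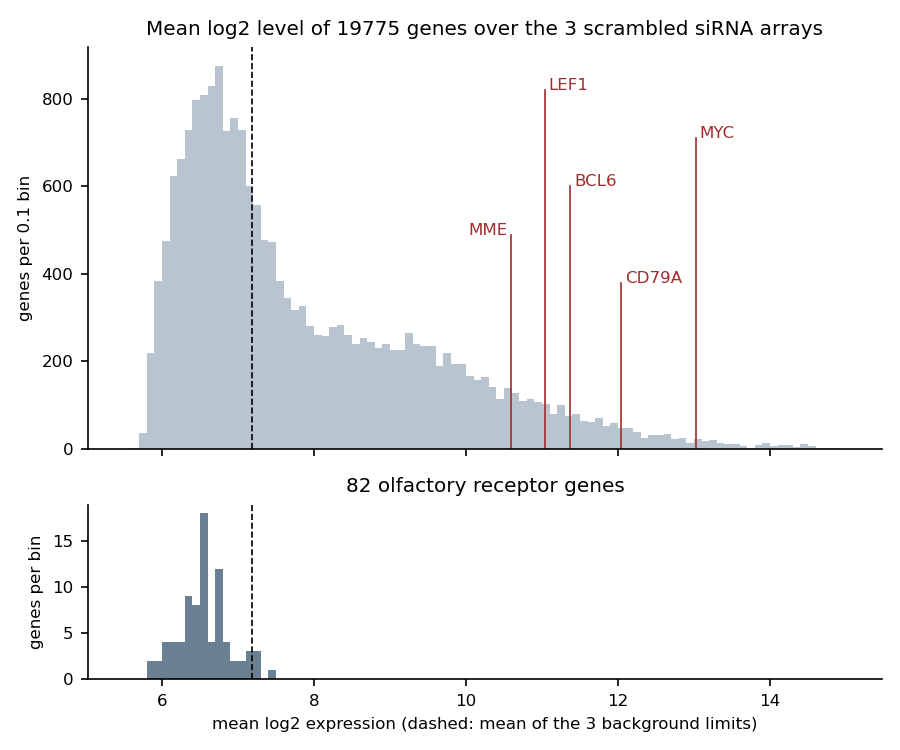
Number of genes per 0.1 bin of mean log2 expression over the 3 scrambled siRNA arrays, for 19775 genes (upper) and 82 olfactory receptor genes (lower). The dashed line is the mean of the 3 background limits, and the red lines mark the 5 B cell genes, all far to its right, from MME at 10.59 to MYC at 13.03.

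The 3 arrays ordered the genes alike. Over 19775 genes the Pearson correlation between arrays ran from 0.995 to 0.996 and the Spearman correlation from 0.992 to 0.994; the genes of an array share its RNA and are no independent replicates. Gene medians were 7.33, 7.31 and 7.31 on batches 1, 2 and 3. Among genes above background, 64.2% had their highest value on batch 3, and 87.1% among the 1000 genes with the highest means. The share of 64.2% was 65.0% with equal gene medians, 33.5% after quantile normalization and 3.79% with the arrays shifted to equal hybridization controls. The 18 bacterial hybridization control probe sets, spiked in at fixed amounts, were also all highest on batch 3, with means of 10.36, 10.42 and 10.73. The part of hybridization in the batch 3 values was not tested.

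The 5 genes used as markers were all far above background on every array. MYC stood highest, at 13.05, 12.88 and 13.15 on batches 1, 2 and 3, a mean of 13.03 ± 0.13 (SD, n = 3) and the 99.1th percentile of all genes. CD79A, the signalling chain of the B cell antigen receptor, was at 11.89, 12.27 and 11.96, a mean of 12.04 ± 0.20 (97.6th percentile). BCL6 was at 11.27, 11.29 and 11.56, a mean of 11.37 ± 0.16 (95.4th percentile), on its brightest probe set. Its other probe sets had lower means of 10.03 and 7.63, also above background, while the other CD79A probe set had a mean of 11.75. The SD of MYC, CD79A and BCL6 was at most 0.20. MME was at 10.58, 10.22 and 10.96, a mean of 10.59 ± 0.37 (91.3th percentile), and its other probe set had a mean of 10.40. LEF1 was at 11.09, 10.58 and 11.45, a mean of 11.04 ± 0.43 (93.9th percentile), and both genes were lowest on batch 2 and highest on batch 3. For the label of a germinal centre B cell lymphoma, CD79A, MME, BCL6 and MYC were used as markers, and all 4 were above background. No single one of them is specific to it, and neither is LEF1.

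LEF1 ranked 1207 of 19775 genes, between the mitotic regulators BIRC5 and CCNA2 above it and the deubiquitinase USP13 below. The 5 genes directly above and the 5 directly below it shared its mean of 11.04, and their SD ran from 0.0441 for CHORDC1 to 0.244 for ARMC1, all smaller than that of LEF1. The level depended on the probe set. The other LEF1 probe sets had means of 8.45 and 7.58, also above background, and with the median probe set for every gene the LEF1 percentile was 81.0. All 3 probe sets placed LEF1 above background, at different levels.

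The germinal centre list held 26 measured genes, of which 25 were above background, with a median of 11.07 against 7.31 over all genes. After MYC came TCL1A, a coactivator of AKT signalling, at 12.70, 12.88 and 12.80. The G protein subunit GNA13, which confines B cells to the germinal centre, had a mean of 12.24 ± 0.14, and its upstream receptors P2RY8 and S1PR2 had means of 10.81 ± 0.24 and 8.99 ± 0.11. CXCR4, the receptor that keeps B cells in the dark zone, had a mean of 12.20 ± 0.30. The regulator RGS13 stood at 11.20 ± 0.22, the elongation factor ELL3 at 11.84 ± 0.10 and the surface enzyme CD38 at 10.16 ± 0.13. Most of this list thus lay in the highest 10% of genes (18 of 26). At its lower end, SERPINA9 had a mean of 7.73 ± 0.05. LMO2, with a mean of 7.12, was the member not above background.

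BMP7, a growth factor, was at 11.01, 11.16 and 11.15, and SOX11, a factor known from nerve cells and mantle cell lymphoma, had a mean of 8.88 ± 0.11. Both were above background in all 3 cultures. MYBL2, which drives late cell cycle genes, was at 12.10, 12.06 and 12.35, and its relative MYBL1 at 9.10, 9.27 and 9.11. The remaining members STMN1, SSBP2, E2F2, BCL7A and GCSAM had means from 10.02 to 11.71.

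Genes that are often mutated in Burkitt lymphoma were all above background, 21 of 21, with a median of 11.31. The small GTPase RHOA was highest at 13.38 ± 0.17, followed after MYC by the RNA helicase DDX3X at 12.82 ± 0.05. TCF3, which activates B cell genes, was at 12.40, 12.28 and 12.50. Its inhibitor ID3 was at 11.39, 11.72 and 12.12, and their common target CCND3, a cyclin, at 11.03, 10.96 and 11.40. ID3 and CCND3 were highest on batch 3, and for ID3 the 3 arrays spanned more than for TCF3. The chromatin remodellers SMARCA4 and ARID1A had means of 11.79 ± 0.16 and 11.31 ± 0.14. TFAP4 and CDKN2A, a cell cycle inhibitor, were the lowest members at 7.72 ± 0.14 and 7.37 ± 0.02. Arrays of this kind do not read mutations.

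Transcription factors of the B lineage were above background in 26 of 27 cases, with a median of 10.90. POU2AF1, the coactivator of octamer-binding factors, was highest at 12.69, 12.54 and 12.73. Next were the E proteins TCF3 (mean 12.39 ± 0.11) and TCF4 (11.95 ± 0.35) and the ETS factor SPIB (11.90 ± 0.09). PAX5, which fixes B cell identity, was at 11.38, 11.41 and 11.55. IRF8 was at 11.49, 11.30 and 11.65, and MYB at 11.41, 11.32 and 11.71. EBF1, which acts with PAX5, was lower at 9.52, 9.33 and 9.59, and FOXO1, needed for dark zone cells, at 9.46, 8.94 and 9.23. The B lineage factors named so far lay well clear of the background limit.

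Among the other factors, ETS1 (11.23 ± 0.22), IRF4 (11.21 ± 0.28), BACH2 (11.03 ± 0.32), IKZF1 (10.90 ± 0.20), ELF1 (10.76 ± 0.15) and IKZF3 (10.61 ± 0.05) lay above 10.5. BCL11A (10.35 ± 0.30), RUNX3 (10.20 ± 0.14), FOXP1 (10.06 ± 0.28), MEF2C (9.78 ± 0.13), TCF12 (9.68 ± 0.09) and POU2F2 (9.58 ± 0.39) followed. SPI1, shared with myeloid cells, had a mean of 8.38 ± 0.16. ID2, an inhibitor of E proteins, had the widest range of the list, at 11.74, 10.35 and 11.68. PRDM1 and XBP1, both plasma cell factors, stood at the bottom. PRDM1, which silences the B cell programme, was at 7.63, 7.44 and 7.54, just above the limits. XBP1, which expands secretion, was at 7.41 on batch 1, above the limit, and below the limits on the other arrays, with a mean of 7.03.

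**Figure D2:**
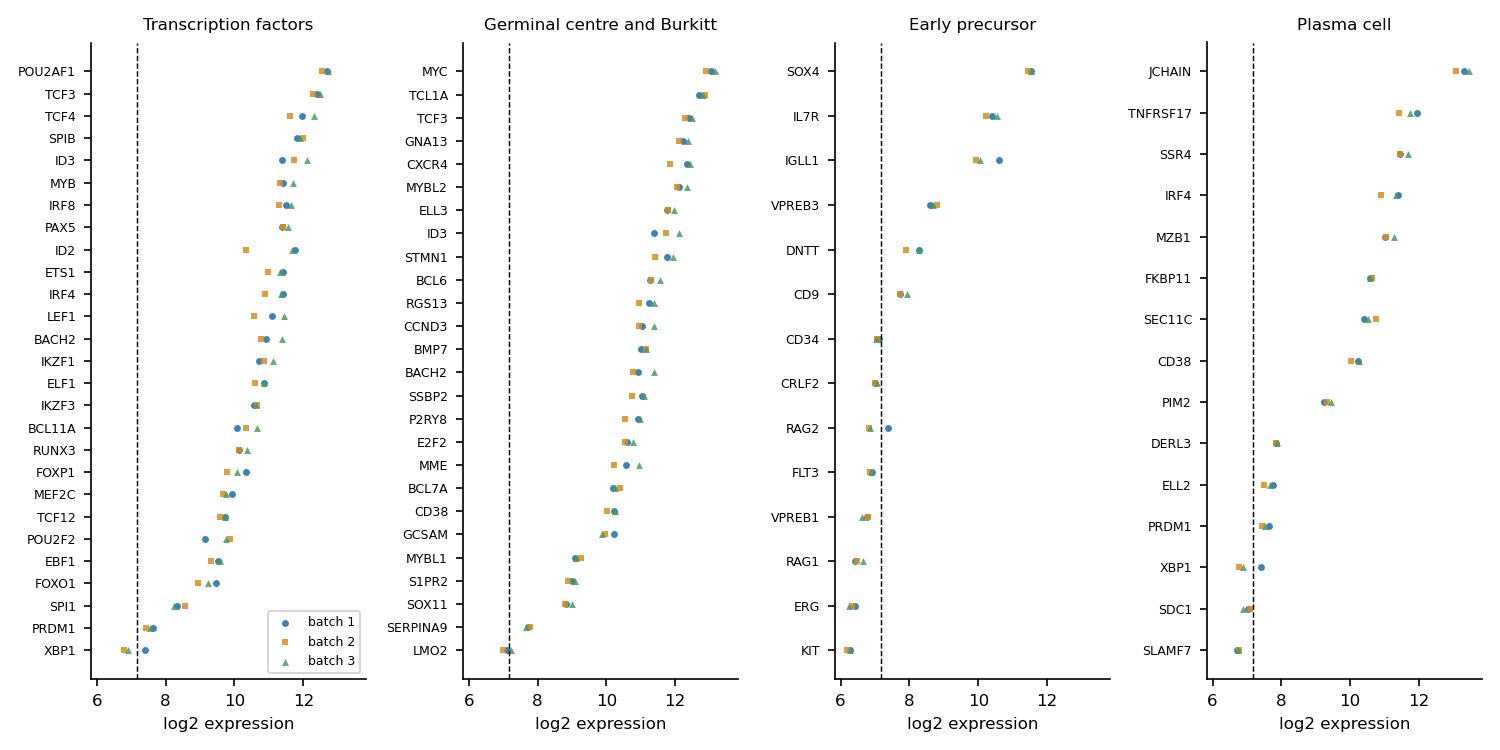
Log2 expression of single genes (rows) on the 3 scrambled siRNA arrays, by batch, for 4 lists: B lineage transcription factors, germinal centre and Burkitt genes, early precursor genes and plasma cell genes. The dashed line is the mean background limit; 26 of 27 and 25 of 26 genes of the first 2 lists were above background on all arrays, against 6 of 14 precursor genes.

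Genes of the stages before and after were represented unevenly. Of 14 early precursor genes, 6 were above background, or 42.9% against 51.2% of all genes. SOX4 (11.50 ± 0.06) and the receptor IL7R (10.39 ± 0.15) were highest. IGLL1, a surrogate light chain, was at 10.60, 9.94 and 10.05, its relative VPREB3 at 8.59, 8.81 and 8.68, and DNTT, the polymerase that adds bases at antibody gene joints, at 8.28, 7.89 and 8.29. CD9 had a mean of 7.79 ± 0.12. The recombinase genes RAG1 (6.51) and RAG2 (7.01), the surrogate chain VPREB1 (6.73) and the stem cell markers CD34 (7.06) and KIT (6.24) were not above background, nor were CRLF2, FLT3 and ERG. IGLL1 is close in sequence to lambda constant genes, so its signal is uncertain in cells with abundant lambda transcripts.

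Of 15 plasma cell genes, 12 were above background, with a median of 10.17. JCHAIN, which joins IgM molecules, was at 13.30, 13.07 and 13.46. The receptor TNFRSF17 (11.70 ± 0.27), the secretory channel subunit SSR4 (11.52 ± 0.13) and the antibody chaperone MZB1 (11.12 ± 0.14) were also high. The secretory factor gene XBP1 (7.03) and the surface genes SDC1 (7.01) and SLAMF7 (6.73) were not above background.

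Antigen receptor genes were led by immunoglobulin constant genes. IGLC1, a lambda light chain constant gene, was at 14.48, 14.54 and 14.71 and ranked 9 of all genes. IGHM, the heavy chain of IgM, was at 14.15, 14.04 and 14.34 and ranked 40. IGKC, the kappa constant gene, was at 8.36, 8.36 and 8.50 on its brightest probe set, and its other probe sets had means from 6.56 to 7.26. IGHD (7.23) and IGHA1 (6.92) were not above background, and IGHG1 was just above, at 7.65, 7.51 and 7.24. The brightest IGLC1 and IGHM probe sets thus lay far above those of IGKC, and IGHG1 was near the limit. A further IGLC1 probe set had a mean of 14.54, while its other 7 had means from 6.15 to 7.05 and were not above background. Lambda constant genes are near-identical copies, so IGLC1 stands for the family.

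Of the 27 measured receptor genes, 23 were above background. The coreceptor component CD81 (12.24 ± 0.08) and the 2 signalling chains CD79A and CD79B (11.61 ± 0.18) were bright. The kinases downstream followed, with SYK at 11.23 ± 0.09, LYN at 10.96 ± 0.21, BTK at 10.26 ± 0.11 and BLK at 9.99 ± 0.30. The phospholipase PLCG2 stood at 11.74 ± 0.18 and the adaptor BLNK at 11.20 ± 0.12. The inhibitory receptors CD22 (10.34 ± 0.14) and CD72 (8.86 ± 0.17) and the phosphatases INPP5D (8.87 ± 0.20) and PTPN6 (7.74 ± 0.21) were lower. The complement receptor CR2 (6.53) and the lambda-like gene IGLL5 (7.18) were not above background.

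Surface antigens numbered 26 above background of 30. MS4A1, which encodes CD20, was at 13.45, 13.47 and 13.73, CD24 at 12.89, 12.44 and 12.98, and the Fc receptor-like gene FCRLA at 12.95, 12.93 and 13.00. CD52 (11.94 ± 0.11), CD37 (11.86 ± 0.23) and CD48 (11.44 ± 0.19) followed. The costimulatory genes CD40 (9.84 ± 0.03), CD70 (9.81 ± 0.16), CD27 (9.81 ± 0.25), CD86 (9.66 ± 0.03) and CD80 (8.79 ± 0.04) lay in the middle. CCR7, the receptor for the T cell zone, was at 8.31, 7.82 and 7.54. CD44 (6.93), FCER2 (7.07), ROR1 (6.66) and CD200 (6.26) were not above background. Above the limit, the list spanned levels from FCRL1 at 7.37 to CD74 at 13.57.

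All 25 measured MHC genes were above background, with a median of 10.81. Of the class I genes, B2M was at 13.76, 13.74 and 13.99 and HLA-B at 13.56, 13.61 and 13.73. Of the class II genes, HLA-DRA was at 13.32, 13.43 and 13.47 and the invariant chain CD74 at 13.45, 13.66 and 13.60. The peptide editors HLA-DMA (10.81 ± 0.11), HLA-DOB (9.44 ± 0.06) and HLA-DOA (8.79 ± 0.10) were lower. The peptide transporters differed, with TAP2 at 9.45 ± 0.19 and TAP1 at 8.51 ± 0.04. The master regulators were lowest, NLRC5 at 7.70 ± 0.13 and CIITA at 7.36, 7.69 and 7.43. Their median SD was 0.0908 against 0.119 for all genes above background, and 14 of 25 were highest on batch 2 beside 18.4% of those genes. HLA genes are polymorphic and similar to each other, so their single values are uncertain.

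Promoter windows of these genes share a sequence feature. RefSeq windows, 250 bases before and 50 after the start, were at hand for 15382 genes (GRCh38.p14). Letters were searched on both strands and a match is a description, not a binding site. CCAAT, the core of NF-Y sites, was found in 15 of 20 MHC windows (75.0%) against 36.0% of all windows. The match nearest the start is shown in capitals (ATTGG on the other strand) with 25 bases on each side, for an invariant chain and 2 class II genes at chr5:150412934-150412988 (minus strand), chr6:32589865-32589919 (minus strand) and chr6:32637313-32637367 (plus strand).
CD74: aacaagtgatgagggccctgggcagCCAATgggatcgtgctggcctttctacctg
HLA-DRB1: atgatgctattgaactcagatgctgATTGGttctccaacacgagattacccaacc
HLA-DQA1: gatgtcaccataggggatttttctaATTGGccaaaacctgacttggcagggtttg

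Wnt signalling genes around LEF1 spanned a wide range of levels. Of 34 measured, 24 were above background, with a median of 7.93 and 3 in the highest 10%. The kinase CSNK1A1 was highest at 11.19 ± 0.17, then LEF1 and the corepressor TLE5 (10.69 ± 0.11). CTNNB1, which encodes beta-catenin, was at 9.76, 9.55 and 10.01. Among the scaffold and kinase genes of the destruction complex, GSK3B had a mean of 9.30 ± 0.17, GSK3A of 8.82 ± 0.20, AXIN1 of 8.47 ± 0.06 and APC of 7.83 ± 0.15.

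At the cell surface, FZD3 (8.64 ± 0.22), LRP6 (8.16 ± 0.11), LRP5 (7.97 ± 0.20), FZD6 (7.51 ± 0.20) and FZD2 (7.32 ± 0.12) were above background, and FZD1 and FZD7 were not. The signal transducers DVL2 (9.40 ± 0.13), DVL3 (8.98 ± 0.12) and DVL1 (8.70 ± 0.16) were above background. Of the nuclear partners, TLE3 (9.06 ± 0.08), PYGO2 (8.82 ± 0.13), CTNNBIP1 (8.41 ± 0.10), BCL9 (7.89 ± 0.16), TLE4 (7.86 ± 0.18) and BCL9L (7.31 ± 0.06) were above background and TLE1 was not. WNT5A had a mean of 8.15 ± 0.19 while WNT1 (6.59) was at background, as were the secretion factor WLS (6.68) and the inhibitors DKK1 (6.16) and SFRP1 (6.89). LEF1's relatives TCF7L1 (6.83) and TCF7L2 (7.03) were not above background. Nor was AXIN2, a common Wnt target gene, at 7.12, 7.17 and 7.20, while the target NKD1 passed narrowly at 7.23 ± 0.04.

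Genes of the MYC and MAX network, MYC among them, were all above background, 12 of 12, though the list's median of 8.57 was modest. MAX, the obligate partner of MYC, was at 10.72, 10.77 and 11.10. MAX also pairs with antagonists, of which MXI1 had a mean of 10.18 ± 0.16, MNT of 8.88 ± 0.28, MXD3 of 8.44 ± 0.09 and MXD1 of 7.37 ± 0.09. The MYC relatives MYCL (7.33 ± 0.09) and MYCN (7.26 ± 0.01) were near the limit. With the median probe set for each gene, 7 of the network genes were above background. With the limit at the 99th percentile of the olfactory receptor genes, 9 were.

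The brightest signals of the cells belonged to protein synthesis. Of the 30 highest genes, 19 encoded cytosolic ribosomal proteins and 4 lay in the mitochondrial genome. The remaining 7 were EEF1A1, IGLC1, ACTB, GAPDH, TPT1, TUBA1B and PPIA. RPL41 was at 14.67, 14.72 and 14.93 and EEF1A1, which delivers transfer RNA to the ribosome, at 14.64, 14.71 and 14.91. Of 26 listed ribosomal protein genes 25 were above background, all in the highest 10%, with a median of 14.15. RPLP2, at 6.97, 6.97 and 6.99, was the exception, and its other probe set had a mean of 6.13. Probe sets naming several genes were not used, and whether any of them reads RPLP2 was not examined. Absence of its transcript can therefore not be read from these values. Ribosomal protein genes have many near-identical pseudogenes, so their values are uncertain one by one.

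Translation factors were above background in 20 of 21 cases, with a median of 12.49. EEF2, the translocation factor, had a mean of 14.25 ± 0.16 and PABPC1, which binds poly(A) tails, of 14.14 ± 0.13. EIF4E, which binds the cap, had a mean of 11.21 ± 0.08 and its scaffold EIF4G1 of 11.52 ± 0.12. EIF5A was lower at 10.10, 10.32 and 9.81. EIF4A2, at 6.02 ± 0.06, was not above background, and its value came from 1 probe set. Here too probe sets naming several genes were left out, so absence of the transcript cannot be read from it.

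Many of these genes are known to start with a C followed by pyrimidines, the 5′ terminal tract through which their translation answers to growth signals. A C at the listed start followed by at least 4 pyrimidines was found in 15 of 22 ribosomal protein windows (68.2%) and in 5 of 16 translation factor windows (31.2%), against 4.50% of all windows. Such starts of 5 bright genes are shown from 20 bases before to 20 after the start, with the tract in capitals, and CD79A is added as a gene without one. Their places are chr12:56116613-56116652 and chr6:33272055-33272094 (plus), chr15:69452798-69452837 (plus), chr6:73521013-73521052 and chr13:45341164-45341203 (minus) and chr19:41877259-41877298 (plus).
RPL41: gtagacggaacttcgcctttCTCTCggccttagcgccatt
RPS18: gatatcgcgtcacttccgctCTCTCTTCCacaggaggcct
RPLP1: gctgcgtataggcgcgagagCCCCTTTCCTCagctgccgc
EEF1A1: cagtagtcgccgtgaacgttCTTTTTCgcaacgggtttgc
TPT1: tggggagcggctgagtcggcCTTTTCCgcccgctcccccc
CD79A: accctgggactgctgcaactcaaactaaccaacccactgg

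All 19 nucleolar genes, which make ribosomes, were above background with a median of 10.91. NPM1 was highest at 13.97, 14.14 and 14.30, followed by NHP2 (13.36 ± 0.25) and NCL (13.07 ± 0.14). FBL, which methylates ribosomal RNA, had a mean of 12.67 ± 0.12. RRP9 (8.92 ± 0.03) and UTP20 (8.62 ± 0.07) were lowest. CACGTG, the E-box that MYC and MAX can bind, was found in 5 of 14 windows (35.7%), those of FBL, NOP2, PES1, RRP9 and UTP20, against 8.84% of all windows. Only in UTP20 did a match lie wholly before the start, and closely so. It is shown in capitals, at chr12:101280070-101280104 on the plus strand.
UTP20: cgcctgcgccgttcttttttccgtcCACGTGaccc

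Mitochondrial and energy genes were bright as a group. COX1, a subunit of the terminal oxidase encoded in the mitochondrial genome, ranked first of all genes at 14.76, 14.79 and 14.95. ND4 (14.60 ± 0.03), COX2 (14.58 ± 0.07), ATP6 (14.41 ± 0.04) and ND2 (14.26 ± 0.11) were close to it. COX3 was lower, at 10.61, 10.50 and 9.73, and ND6, at 7.53, 7.50 and 7.69, lay near the limit. All 25 nuclear respiratory chain and ATP synthase genes were above background and in the highest 10% of genes, led by ATP5F1A (13.57 ± 0.21) and COX7C (13.48 ± 0.16). The lowest of them, SDHA, had a mean of 10.48 ± 0.15.

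GCATGCGC, the core of NRF1-type sites, was found in 6 of 20 windows of these respiratory genes against 4.23% of all windows. It was present in ATP5ME, ATP5PF, COX5B, COX6A1, CYCS and SDHD. The match is in capitals below for 3 of them, with 25 bases on each side; in SDHD 2 matches on opposite strands overlap. They lie at chr7:25125397-25125454 (minus), chr11:112086740-112086797 (plus) and chr2:97645901-97645958 (plus).
CYCS: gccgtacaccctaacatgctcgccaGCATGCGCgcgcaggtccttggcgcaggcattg
SDHD: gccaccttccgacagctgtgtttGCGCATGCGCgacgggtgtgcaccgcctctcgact
COX5B: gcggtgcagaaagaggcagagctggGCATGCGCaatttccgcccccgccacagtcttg

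Glycolysis genes were above background in 21 of 22 cases. GAPDH (14.48 ± 0.12), the lactate dehydrogenase subunits LDHB (14.00 ± 0.15) and LDHA (13.86 ± 0.15) and ENO1 (13.37 ± 0.21) led the list. Of the first-step enzymes, HK1 had a mean of 10.72 ± 0.07 and HK2 of 10.09 ± 0.23. The glucose carriers were dim, SLC2A1 at 8.02, 7.82 and 8.39 and SLC2A3 not above background at 6.84. PFKFB3, which makes an activator of glycolysis, was at 7.92, 7.96 and 8.69. All 23 proteasome genes were above background, from PSMB10, an immunoproteasome subunit, at 8.99 ± 0.19 to PSMB4 at 12.85 ± 0.21.

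Cell division genes were all detected. Of the DNA replication list 29 of 29 were above background, with a median of 11.30. RRM2, which makes deoxynucleotides, was at 13.31, 13.33 and 13.50, the clamp PCNA at 13.14, 13.00 and 13.20 and TYMS at 12.89, 12.72 and 12.91. The helicase subunits MCM6 (12.77 ± 0.08) and MCM7 (12.72 ± 0.11) followed. E2F1, a driver of S phase, was the lowest member at 9.25 ± 0.11 and ORC1 the next at 9.35 ± 0.23. On batch 2, 21 of the 29 genes had their lowest value, and on batch 3, 24 had their highest, beside 46.4% and 64.2% of all genes above background. After quantile normalization the counts were 14 and 8, beside 33.2% and 33.5%.

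All 27 genes of G2 and mitosis were above background as well, with a median of 11.04. CKS2, a partner of cyclin-dependent kinases, was at 12.36, 12.38 and 12.94, and PTTG1, the securin, at 12.38, 12.32 and 12.43. CDK1 had a mean of 11.71 ± 0.22, CCNB1 of 11.55 ± 0.03, the proliferation marker MKI67 of 10.44 ± 0.06 and AURKB of 10.29 ± 0.01. CENPE (8.70 ± 0.03) and the phosphatase CDC25C (8.34 ± 0.08) were lowest. The median SD of this list was 0.0951.

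CCAAT was found in 18 of 21 windows of G2 and mitosis genes (85.7%), and 12 windows (57.1%) held 2 or more matches against 12.2% of all windows. The letters TTTGAA, the core of CHR-type elements known from genes silenced outside G2, were found in 13 of 21 (61.9%) against 12.0%. This motif, the count of 2 or more CCAAT matches and the pyrimidine start were added after values were seen. The 150 bases before the start are shown for 4 members, with CCAAT or its complement ATTGG in capitals, at chr5:69167000-69167149 (plus), chr15:59104996-59105145 (plus), chr1:43358831-43358980 (plus) and chr17:40417897-40418046 (minus). The spaced repeats are visible in each.
CCNB1: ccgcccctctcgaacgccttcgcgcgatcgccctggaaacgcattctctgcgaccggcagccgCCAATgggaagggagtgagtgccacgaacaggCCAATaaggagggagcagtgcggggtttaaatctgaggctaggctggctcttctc
CCNB2: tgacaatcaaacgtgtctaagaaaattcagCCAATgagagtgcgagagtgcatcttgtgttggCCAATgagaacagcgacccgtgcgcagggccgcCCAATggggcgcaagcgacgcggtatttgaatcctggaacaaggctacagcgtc
CDC20: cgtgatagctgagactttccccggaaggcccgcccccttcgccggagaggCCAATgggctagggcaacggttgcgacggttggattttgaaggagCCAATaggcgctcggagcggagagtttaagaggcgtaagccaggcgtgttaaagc
TOP2A: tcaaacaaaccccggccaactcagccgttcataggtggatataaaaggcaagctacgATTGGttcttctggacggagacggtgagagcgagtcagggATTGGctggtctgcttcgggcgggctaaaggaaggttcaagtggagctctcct

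Across all genes, promoter composition changed with level. TATAAA, the TATA box, was found in 17.5% of windows in the lowest 10% of genes and 6.69% in the highest 10%. GGGCGG, the GC box of Sp1-type factors, rose from 37.2% to 69.2%. The ETS letters CCGGAAGT rose from 2.08% to 11.2% and the E-box from 5.65% to 12.6%, while CCAAT went from 36.0% in the lowest group to 30.1% in the fifth and 40.9% in the highest. Mean GC content was 54.4% in the lowest 10% and 63.8% in the highest, and the shares were not adjusted for it. The octamer ATGCAAAT was found in 1.53% of windows. Among the B cell lists it was in 0 of 16 antigen receptor windows, 0 of 23 B lineage factor windows, 1 of 23 surface antigen windows, 2 of 21 germinal centre windows and 1 of 13 early precursor windows.

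**Figure D3:**
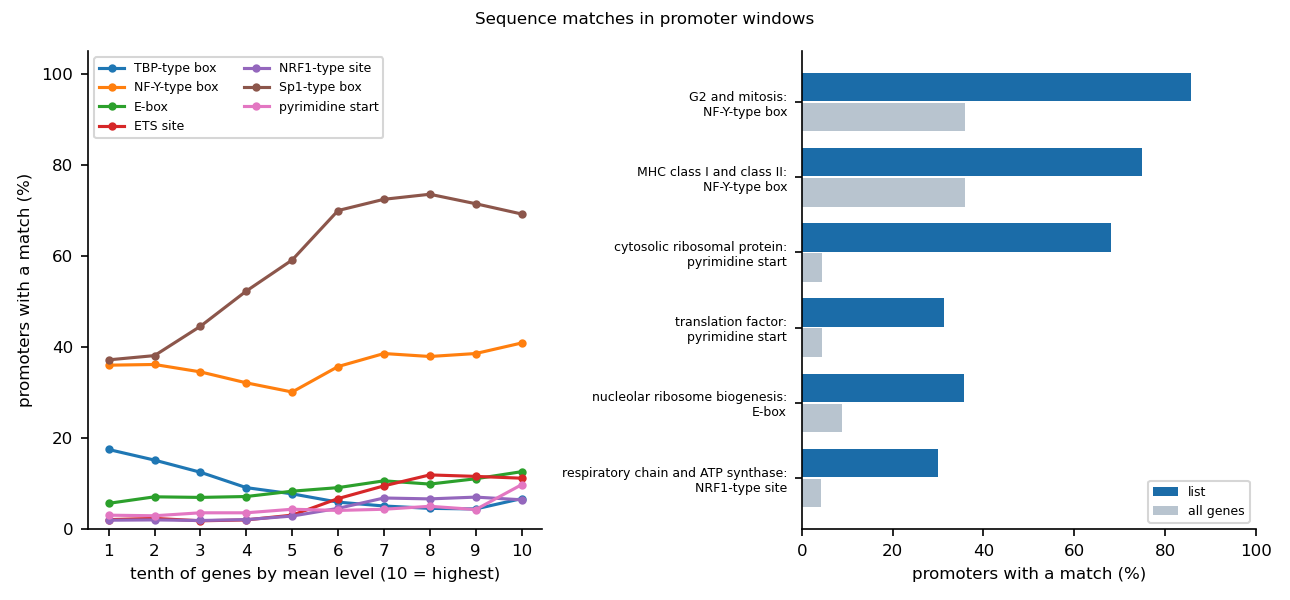
Share of promoter windows with a match, in 10 equal groups of genes by mean expression level (left, 10 is the highest) and in 6 gene lists beside all genes (right). The Sp1-type box is the GC box, the TBP-type box the TATA box and the NF-Y-type box CCAAT; the Sp1-type share rises from 37.2% to 69.2% and the TBP-type share falls from 17.5% to 6.69%.

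Brakes on division were partly present. Of 14 quiescence and inhibitor genes 11 were above background, with a median of 8.44. BTG1 was highest at 11.78, 11.37 and 11.20. CDKN1A, which encodes p21, had a mean of 9.36 ± 0.13 and CDKN1B, which encodes p27, of 8.71 ± 0.24. KLF2 (6.68), CDKN2B (7.09) and CDKN1C (7.09) were not above background. Chromatin genes were above background in 27 of 27 cases, with HMGB1 (13.86 ± 0.24), DNMT1 (12.14 ± 0.32) and EZH2 (10.81 ± 0.21) bright and the demethylase gene TET1 (7.54 ± 0.11) lowest.

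Survival genes of the BCL2 family were split. MCL1, a protector, was highest at 11.88, 11.73 and 12.01. The killers BIK at 11.38, 11.29 and 11.76, BCL2L11, which encodes BIM, at 11.39, 11.17 and 11.29, and PMAIP1, which encodes NOXA, at 11.26, 11.14 and 11.26 came next. BCL2, usually silenced in germinal centre cells, was at 8.33, 8.47 and 8.68, above background but at the 69.5th percentile. Its other probe sets had means from 7.25 to 7.47, and the lowest of them was not above background. BID (10.21 ± 0.09), BCL2L1 (9.83 ± 0.25), BAX (8.98 ± 0.04), BCL2A1 (8.94 ± 0.37), HRK (8.71 ± 0.16), BAK1 (8.33 ± 0.26), BAD (8.16 ± 0.02) and BMF (7.85 ± 0.05) were above background. BOK (7.04), BCL2L2 (6.85) and BCL2L10 (6.83) were not, which left 13 of 16.

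Death receptor and caspase genes were above background in 13 of 15 cases, led by CASP2 (11.08 ± 0.07) and DIABLO (10.87 ± 0.19). FAS was at 7.63, 6.87 and 7.39, below the limit on batch 2 only. Of 20 genes of the p53 pathway, 17 were above background, with MDM2, which degrades p53, at 10.96 ± 0.12 and RRM2B at 10.63, 9.93 and 10.51. TP53I3 (7.14) and SPATA18 (6.68) were not.

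Stress genes were examined because the cells had been electroporated. Of 22 measured heat shock and immediate early genes, 17 were above background (77.3%, beside 51.2% of all genes). Chaperones were bright, with HSP90AA1 at 14.06 ± 0.09 and HSPD1 at 13.94 ± 0.19, but the inducible DNAJB1 (10.44 ± 0.42) and BAG3 (8.48 ± 0.19) were lower. Among the immediate early genes of this list, FOS (6.62), FOSB (6.79), JUN (7.14) and EGR3 (6.27) were not above background. EGR1 was at 8.35 on batch 1, above the limit, and below it on the other arrays, with an SD of 0.99. In the integrated stress list 20 of 21 genes were above background. ATF4 was at 12.50, 12.48 and 12.75 and its amino acid target ASNS at 11.95, 11.74 and 11.87, while the late stress genes CHAC1 (7.96 ± 0.22) and DDIT3 (7.51 ± 0.26) were dim. No unelectroporated culture was analysed, so a stress level cannot be read from these values.

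Of 35 measured genes on the list of double-stranded RNA sensors and interferon genes, 19 were above background. That was 54.3%, beside 51.2% of all genes and 58.3% of protein-coding genes. ADAR, which edits such RNA, was highest at 11.61, 11.63 and 11.97. Of the sensors of double-stranded RNA, EIF2AK2 had a mean of 8.90 ± 0.20, IFIH1 of 8.58 ± 0.14 and RIGI of 7.49 ± 0.05. TLR3 (6.01) was not above background. Of the listed sensors of other nucleic acids, TLR9 had a mean of 8.12 ± 0.26 and TLR7 of 7.58 ± 0.27. TLR8 (6.61) was not above background. Interferon genes IFNB1 (6.58) and IFNA2 (6.08) were not above background, nor were the responsive genes IFIT1 (6.35), RSAD2 (6.41) and IFI44L (6.02). MX1 (9.67 ± 0.05) and ISG15 (9.46 ± 0.06) were above it. All 14 genes of the small RNA machinery that an siRNA uses were above background, among them AGO2, the cutting enzyme, at 9.77, 9.64 and 9.76 and DICER1 at 9.50, 9.38 and 9.83.

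**Figure D4:**
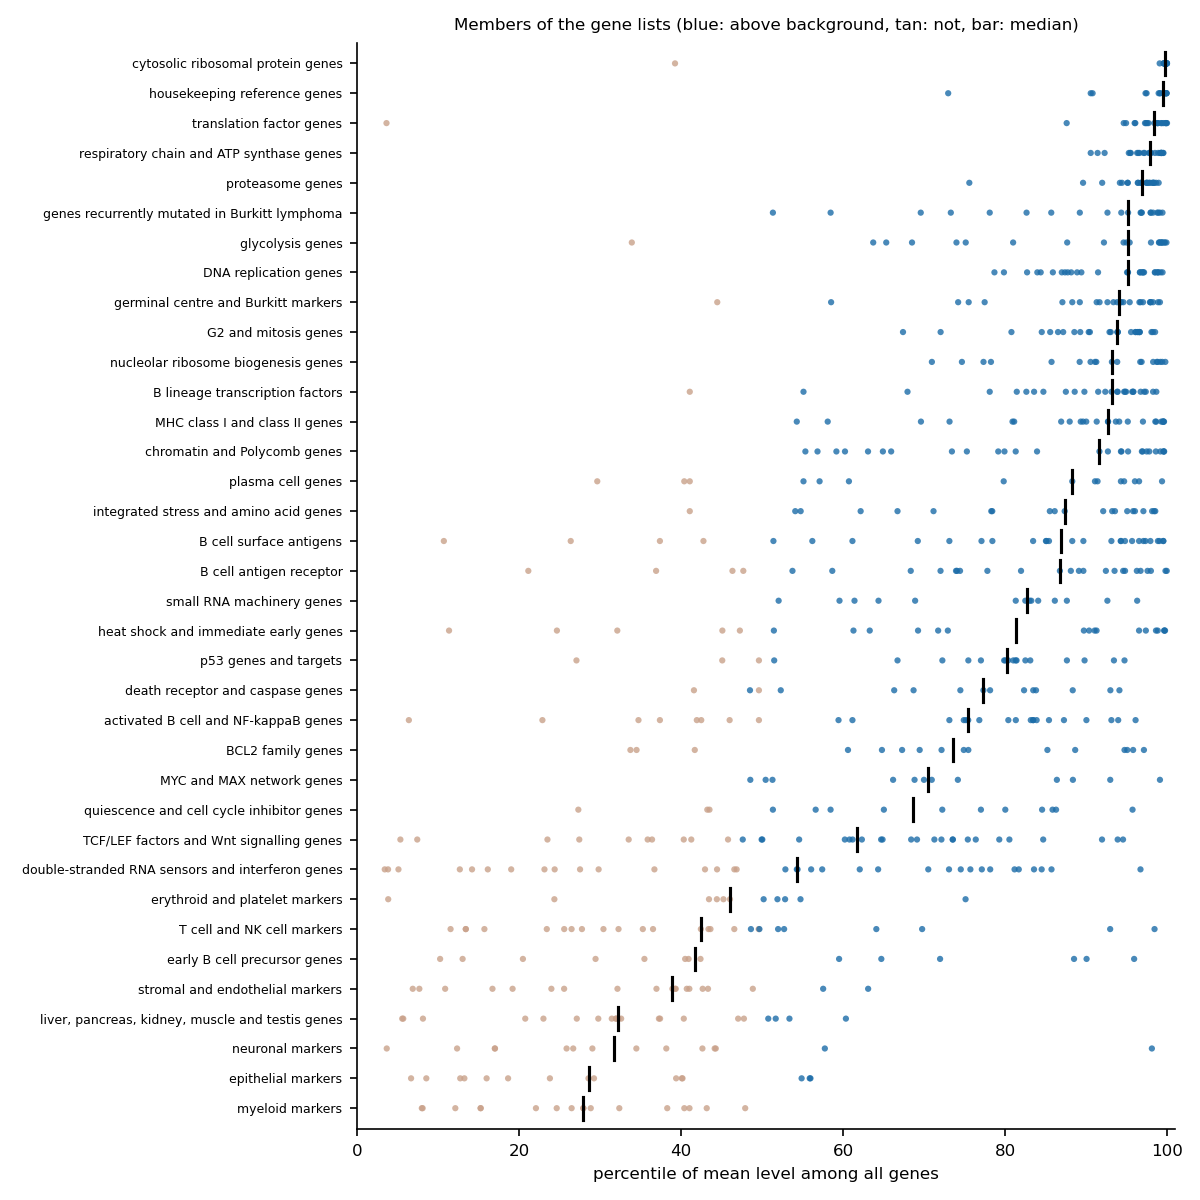
Percentile of the mean level among all 19775 genes for each measured member (points) of 36 gene lists, with the list median as a bar; blue points were above background and tan points were not. Ribosomal protein genes lie at the right, with a median at the 99.8th percentile, and myeloid genes at the left, with a median at the 27.9th and 0 of 17 above background.

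The share of markers of other cell types above background was below the 51.2% of all genes in each list. For erythroid and platelet markers it was near that share, at 45.5%. Of 17 myeloid markers 0 were above background; the highest was MARCO at 7.24 and S100A8 and LYZ were at 6.18 and 6.39. Epithelial markers passed in 3 of 15 cases (KRT7, ELF3 and MUC1, with means from 7.52 to 7.58), stromal markers in 2 of 19 (COL1A1 at 8.02 and PECAM1 at 7.67) and erythroid markers in 5 of 11. The last were EPOR (8.95), GP9 (7.51), AHSP (7.43), GATA1 (7.39) and ITGA2B (7.32). VIM, abundant in mesenchymal and many blood cells, was not above background at 7.05, 7.03 and 7.13. Of the genes of liver, pancreas, kidney, muscle and testis 4 of 21 passed, CYP3A4, AQP2, TNP1 and CRYGD, with means from 7.35 to 7.84 (19.0% of that list). With the limit at the highest olfactory receptor gene, 1 erythroid, 1 epithelial and 1 such tissue gene passed.

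Some T cell genes were bright. Of 25 T and NK cell markers 8 were above background (32.0%). LCK, a kinase of the T cell receptor, was at 12.44, 12.41 and 12.72, and TRBC1, a T cell receptor constant gene, at 10.86, 10.64 and 11.09. ZAP70 (8.51 ± 0.13) and CD247 (8.10 ± 0.13) were lower, and NCAM1 (7.42), CD5 (7.40), FOXP3 (7.30) and CD7 (7.27) were close to the limit. CD3D (7.09), CD3E (6.91), CD3G (6.59), CD2 (6.69), NKG7 (6.40) and GZMB (6.33) were not above background. Genes of the T cell receptor complex and its kinases thus lay on both sides of the limit, with CD3D, CD3E and CD3G not above it and TRBC1, CD247, LCK and ZAP70 above. With the limit at the 99th percentile of the olfactory receptor genes, the count was 5. Among neuronal markers TUBB3, a tubulin similar in sequence to other tubulins, was at 12.14, 12.38 and 12.35, GRIN1 passed at 7.68 ± 0.08, and the other 12 of 14 were not above background.

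Genes that do not encode proteins were rarer above background. Of 16520 protein-coding genes 58.3% were above it, of 2657 long noncoding RNA genes 12.8% and of 423 transcribed pseudogenes 26.2%. The brightest long noncoding RNAs, named after their values were seen, were DANCR (12.83 ± 0.09) and ZFAS1 (12.58 ± 0.06), both hosts of small nucleolar RNAs, then SNHG17 (11.21 ± 0.05), OIP5-AS1 (11.15 ± 0.33) and CRNDE (11.12 ± 0.25). OIP5-AS1 is read on the opposite strand of a neighbouring gene.

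The spread over the 3 batches was small for most genes and large for a few. The median SD was 0.0869 over all genes and 0.119 over genes above background. It rose from 0.0622 in the lowest 10% of levels to 0.145 in the highest. Without batch 3, the median SD of genes above background was 0.0722. Of the genes above background 17 had a range over 1 log2 unit. The steadiest of the 1000 brightest were the chromatin protein gene HMGA1, at 12.65, 12.66 and 12.65, ATP5F1E, at 13.00, 13.01 and 13.02, and the proteasome gene PSMA1, at 12.64, 12.63 and 12.65. PEBP1, INSIG1, DNAJC2, OXCT1, ACLY, HDDC2 and ND4 followed, with larger SD.

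Among genes above background, the 20 with the largest SD were led by DDIT4, an inhibitor of mTOR, at 11.74, 10.26 and 11.85. CD83, an activation marker, was at 11.85, 10.19 and 10.65. TNFAIP3, a brake on NF-kappaB, was at 10.67, 9.23 and 9.22. Batch 2 was low for DDIT4, while for CD83 and TNFAIP3 batch 1 stood above the other arrays. Of the 20 genes, 16 were lowest on batch 2 (80.0%, beside 46.4% of all genes above background), 11 were highest on batch 1 and 8 on batch 3.

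**Figure D5:**
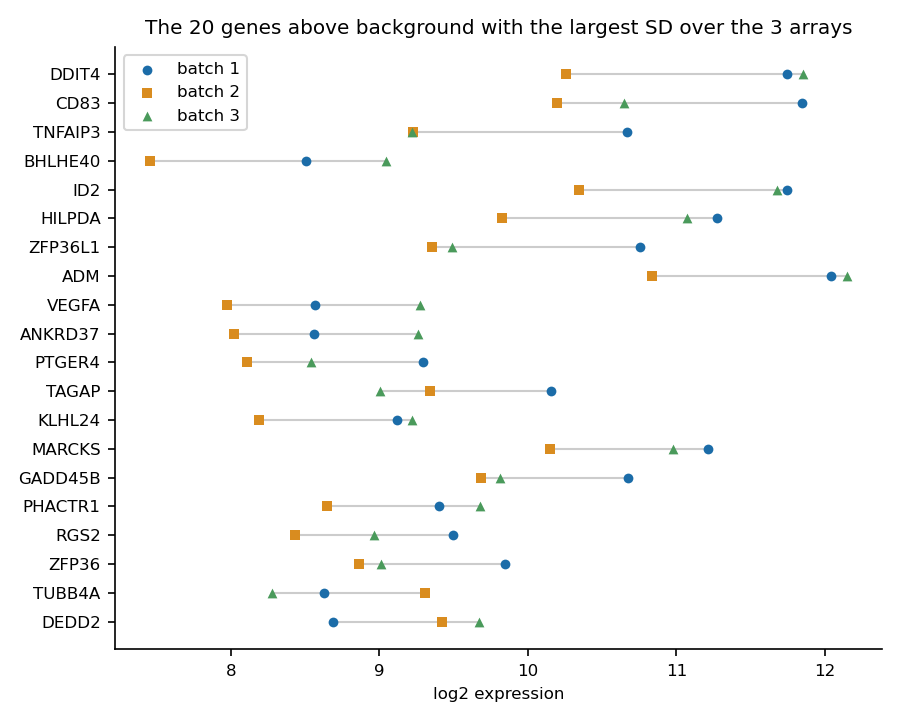
Log2 expression on the 3 scrambled siRNA arrays, by batch, of the 20 genes above background with the largest SD, sorted by SD. Batch 2 is the lowest point for 16 of the 20, and the widest range is that of CD83, from 10.19 to 11.85.

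Several genes of that set are known to respond to low oxygen. BHLHE40, a transcriptional repressor, was at 8.50, 7.45 and 9.04, the growth factor VEGFA at 8.56, 7.98 and 9.27, and ANKRD37 at 8.56, 8.02 and 9.26. HILPDA, a lipid droplet protein gene, was at 11.27, 9.82 and 11.07 and the peptide hormone gene ADM at 12.04, 10.84 and 12.15. These 5 genes were lowest on batch 2; HILPDA was highest on batch 1 and the other 4 on batch 3. A list of genes known to be induced by low oxygen was therefore added after these values were seen. Its 21 measured genes had a median SD of 0.379, beside 0.0869 over all genes, and 17 of them were above background. Of the 17, 15 were highest on batch 3 and 13 lowest on batch 2, beside 64.2% and 46.4% of all genes above background. The genes that prompted the list are in this count and fix part of it. Without its 6 members among the 20 genes with the largest SD, 10 of 11 were highest on batch 3 and 7 of 11 lowest on batch 2. After quantile normalization these were 9 and 7 of the 11, beside 33.5% and 33.2% of all genes above background. With the arrays set to equal hybridization controls, which lowered the gene median of batch 3 by 0.35 against the others, 8 of the 17 were highest on batch 3 and 13 lowest on batch 2 (5 and 7 of the 11), beside 3.79% and 15.7% of all genes above background. BNIP3 at 9.92, 9.61 and 10.55 and the histone demethylase gene KDM3A at 9.07, 8.83 and 9.72 were lowest on batch 2 and highest on batch 3.

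Activated B cell and NF-kappaB genes had another order. Of 27 measured 19 were above background, with a median of 8.98. The subunit genes REL (11.55 ± 0.15), NFKB1 (10.39 ± 0.11), RELB (10.04 ± 0.10), RELA (9.63 ± 0.07) and NFKB2 (9.39 ± 0.17) varied little. Over its 27 measured genes, 8 of them not above background, the list had a median SD of 0.125, beside 0.0869 over all genes. The surface genes CD86 and CD80 were among its steady members. Other members had a larger spread. NFKBIA, an inhibitor induced by the pathway, was at 11.50, 10.90 and 10.77, NFKBIE at 9.46, 8.63 and 8.86, ICAM1 at 9.47, 8.72 and 8.68 and BCL2A1 at 9.36, 8.68 and 8.78. In each of these, batch 1 stood above the other arrays.

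Of the 19 genes, 13 were highest on batch 1, beside 17.4% of all genes above background, and with equal medians the count was 13, beside 14.1%. After quantile normalization it was 15, beside 29.98%, and with equal hybridization controls 16, beside 66.5%, so that under the last scaling most genes were highest on batch 1. TNF (7.07), CCL22 (7.17), CCL4 (6.86), EBI3 (6.57) and IL10 (6.13) were not above background. Batch 1 was also high for the rapidly induced genes ZFP36 (9.84, 8.86 and 9.01), ZFP36L1 (10.75, 9.36 and 9.49), GADD45B (10.67, 9.69 and 9.81), RGS2 (9.50, 8.43 and 8.96) and PTGER4 (9.29, 8.11 and 8.54). ID2, MARCKS and TAGAP shared the maximum on batch 1, and KLHL24, PHACTR1 and DEDD2 were highest on batch 3. TUBB4A was highest on batch 2, at 8.62, 9.31 and 8.28. With 1 array a batch, what set these orders was not tested.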

How the data were processed

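The values the authors deposited are log2 levels of 54675 Affymetrix probe sets on each array; the scale was read from their range. Background correction and normalization are not given in the sources used here. Per the labels' protocols the RNA was amplified from its poly(A) end, so the arrays read mainly transcript ends. The 62 control probe sets were left out; of the other 54613, 41091 named 1 gene, 1801 several and 11721 none here. RefSeq genes (GRCh38.p14) changed 0 symbols. Of 36 gene lists with 805 genes, 726 genes were measured. Percentiles are over 19775 genes. The 3′ to 5′ differences of GAPDH were 0.037, 0.062 and 0.099.

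Everything is a description: no test was run, and the number of arrays limits the precision. Members and lists were chosen with earlier results of these data known. Named genes were the 5 markers, the 30 highest, the 20 with the largest SD, the 10 steadiest of the 1000 brightest, the genes next to LEF1 and to the limit, the highest and lowest of each list, all B lineage factor, BCL2 family, Wnt and germinal centre genes, and other cell type markers above background; some further list members are named to show a pathway, chosen after values were seen. The most upstream RefSeq window stood for a promoter; 4393 genes had none used here, among them all 716 of chromosome 8. Protein length was not analysed here. Python 3.11.15, pandas 2.3.3 and numpy 2.4.6 were used. The calling rule was run on simulated data whose raised genes lay far above background, which does not bear on genes near the limit. Alternatives were other limits, other probe set choices, other scalings and leaving out each array.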

Additional observations from a re-analysis of the deposited data

How the results depend on the processing

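No paired analysis was possible because a single group was described and no comparison between groups was made. The number of genes above background was 10119. With the median probe set for each gene it was 7785, and leaving out each array gave 10156 to 10406. It ran from 7263 without probe sets ending in x, s or a, to 10521 with the limit on the mean over arrays. Without those probe sets only 16788 genes were left, of which 43.3% were above background, beside 51.2% of all 19775. Of 726 measured list genes, 558 were above background, and 369 without those probe sets, where 559 list genes were left to measure. The median gene level of 7.31 became 6.91 with the median probe set and 7.06 without those probe sets. The median SD of genes above background, 0.119, was 0.0919 after quantile normalization and 0.164 with equal hybridization controls, an alternative chosen after seeing the data; leaving out each array gave 0.0722 to 0.113. CCAAT in G2 and mitosis windows was 85.7%, and 90.5% with any listed window. List counts stayed within 1.5 times in 321 of 360 recounts. Probe sets of a gene differed by over 1 log2 unit in 46.5% of 10523 genes with several. Among the 6817 of these above background the share was 68.0%, which limits every level. Signal near the olfactory receptor limit cannot be told from background.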
